A study of Mus musculus with 28 samples.

Results

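The 43 genes described here build or serve the primary cilium and were listed because mutations in such genes are linked to facial defects. They were taken by symbol, all 43 matched, and the background is all 21887 protein-coding genes of the autosomes and sex chromosomes in mouse build GRCm38. For each gene, intervals of acetylation of histone H3 at lysine 27 (H3K27ac, found at active promoters and active enhancers) were taken within 1 kb of either end of the annotated gene, and separately inside the gene, over 1 kb from both ends. A gene with at least 1 interval within 1 kb of an end is called marked below. The list holds 125826 intervals, of which 125580 lie on those chromosomes.

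The study profiled chromatin of cranial neural crest cells of the mouse, which migrate into the embryonic face and make most of its bone and cartilage. The intervals come from 4 wild-type (WT) libraries of embryos at E10.5, a mid-gestation stage, 1 for each population, labelled FNP, Mx, Md and PA2. Cells were dissected, fixed and collected by fluorescence-activated sorting, per the labels' protocols, and no treatment is named for them. The other 24 of the 28 libraries were not analysed here. The 4 libraries were merged into 1 list before the intervals were called, so no value below belongs to one population, none has a replicate error, sequencing depth is unknown, and no difference between genes could be tested. Whether the merged reads of the 4 libraries contributed equally was not tested.

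The primary cilium is a single, non-motile antenna on most vertebrate cells, and in facial mesenchyme it is needed to receive Hedgehog signals. Intraflagellar transport (IFT) trains carry cargo along it: the IFT-B complex travels outwards with kinesin, and the IFT-A complex is needed for the return with dynein and for letting membrane proteins in. The BBSome is a coat complex that moves membrane proteins out of the cilium, and the transition zone is the gate at its base. Loss of cilia from neural crest cells, for example by deleting the kinesin gene Kif3a, is known to disturb the midface. Many cilium genes carry an X-box before their start, the inverted repeat bound by regulatory factor X (RFX) transcription factors.

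Promoter sequences are shown first, since the X-box is known from genes of this kind and its share differed between the cilium genes and all genes. RefSeq promoters of GRCm38.p6, from 250 bases before to 50 bases after each start, were held for 39 of the 43 genes. An entry was not used for Ift80, Ift81, Ift122 and Tmem67. An X-box was read on either strand as a pair of inverted half-sites with up to 3 bases between them. The first read GT, any base, A or G, then CC. The second read A or G, then G, any base and AAC. These forms are looser than the single half-site counted below, so an X-box need not contain it. It was found in 10 of 39 cilium genes (25.6%), against 2.89% of all 17492 protein-coding genes with a promoter and 3.52% of those with an interval within 1 kb of a start. The 10 matches in 9 of these genes are printed 5′ to 3′ along the gene's own strand, each in a window of 30 bases with the X-box in capitals.
Bbs1 (chr19:4906605-4906634, minus strand): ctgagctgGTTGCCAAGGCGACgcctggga
Bbs4 (chr9:59353464-59353493, minus strand): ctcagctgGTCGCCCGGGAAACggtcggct
Bbs7 (chr3:36613489-36613518, minus strand): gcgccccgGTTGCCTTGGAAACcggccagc
Mks1 (chr11:87853183-87853212, plus strand): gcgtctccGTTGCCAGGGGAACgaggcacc
B9d2 (chr7:25680788-25680817, plus strand): aacctgctGTTGCCCCAGCAACagtcgggg
Tctn1 (chr5:122264411-122264440, minus strand): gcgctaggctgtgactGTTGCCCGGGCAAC
Tctn2 (chr5:124598679-124598708, plus strand): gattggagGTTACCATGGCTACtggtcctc
Tctn3 (chr19:40612351-40612380, minus strand): ctcccagcgGTTGCCAGGTAACgggaacca
Ift22 (chr5:136908079-136908108, plus strand): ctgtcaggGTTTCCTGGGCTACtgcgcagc
Ift22 (chr5:136908109-136908138, plus strand): tgttcccgGTCGCCGTGGAAACtgaccagc

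The first of these groups are BBSome genes, followed by transition zone genes and IFT genes. BBSome genes held an X-box in 3 of 6 (Bbs1, Bbs4 and Bbs7) and transition zone genes in 5 of 10 (Mks1, B9d2, Tctn1, Tctn2 and Tctn3). IFT genes held one in 2 of 13 (Ift22 and Ift57), and the 10 other cilium genes held none. All of the 12 matches in the 10 genes lay between 140 bases before and 50 bases after the start, and 8 began before it. The X-box of Tctn1 was the 1 match of the 10 printed that reads the same on both strands. A match of letters is a description, and whether an RFX factor binds there was not tested.

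Longer stretches are shown for 2 of the genes whose X-boxes lie before the start, to place the X-boxes in their surroundings, and no other annotated gene overlaps them. Each covers the 150 bases that end just before the start, with the X-boxes in capitals.
Tctn2 (chr5:124598599-124598748, plus strand): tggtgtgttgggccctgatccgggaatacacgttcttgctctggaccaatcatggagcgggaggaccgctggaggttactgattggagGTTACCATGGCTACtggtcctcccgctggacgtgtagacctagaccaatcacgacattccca
Ift22 (chr5:136908000-136908149, plus strand): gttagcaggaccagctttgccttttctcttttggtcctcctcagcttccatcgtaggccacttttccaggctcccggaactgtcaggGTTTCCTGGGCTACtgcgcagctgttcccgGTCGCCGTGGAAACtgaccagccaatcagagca

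In Tctn2, which codes for a tectonic protein of the transition zone, the nearest intervals, of scores 503 and 1951, left a space of 194 bases around the start. The X-box, 62 to 49 bases before the start, lay in the space between them. In Ift22, a Rab-like small GTPase of IFT-B, both X-boxes (63 to 50 and 33 to 20 bases before the start) lay in a similar space between intervals of score 308 and 922. Over the 12 matches, 6 overlapped an interval and 5 lay in a space between 2 intervals. The remaining match, in Bbs7, lay 121 to 108 bases before the start, and the nearest interval began 17 bases after the start. Over all protein-coding genes with an interval within 1 kb of that start, 43.7% of 394 X-boxes overlapped an interval.

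The single half-site GTTGCC, searched on both strands, was found in 20 of 39 cilium genes (51.3%), against 14.3% of all genes. Of its 23 matches, 9 were inside an X-box, so the counts are not independent of each other. It was present in 7 of 10 transition zone genes, 6 of 13 IFT genes, 3 of 6 BBSome genes and 4 of 10 other cilium genes. Among the genes with a half-site and no X-box were B9d1, Tmem231, Ift88, Ift140, Ift172, Dync2h1 and Kif3a. The 17 genes with neither included Ift46, Ift52, Ift74, Cc2d2a, Rpgrip1l, Bbs2, Bbs9 and both chaperonin genes, Bbs10 and Bbs12.

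Further promoter letters were counted in the same windows. CCAAT was present in 56.4% of the cilium genes and 42.3% of all genes, with 10 of 13 IFT genes and 1 of 6 BBSome genes. The ETS letters CCGGAAG were present in 28.2%, against 12.9% of all genes and 18.5% of those with an interval at a start. The NRF1 letters GCATGCGC were present in 3 of 39 genes (7.69%, against 3.94%). The TATA letters TATAAA were found in 1 gene, Bbs4 (2.56%, against 14.8% of all genes and 9.0% of those with an interval at a start). CpG dinucleotides reached at least 0.6 of the number expected from the base composition in 33 of 39 cilium promoters (84.6%), against 47.2% of all promoters and 69.1% of those with an interval at a start. Of the cilium genes, Cc2d2a had the lowest such ratio, 0.179.

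**Figure D1:**
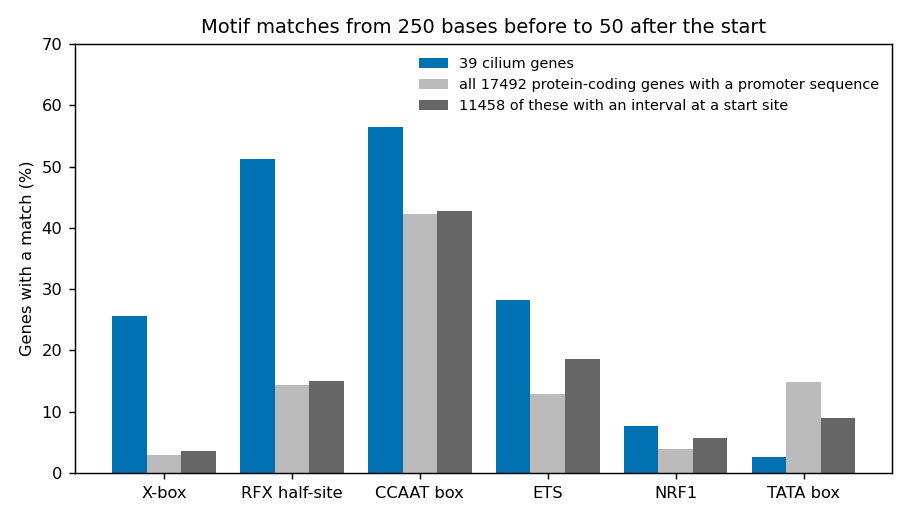
Share of genes (per cent, vertical axis) whose promoter, from 250 bases before to 50 after the start, holds each set of letters, for 39 cilium genes, all 17492 protein-coding genes with a promoter and the 11458 of these with an H3K27ac interval at a start. The X-box is at 25.6% in the cilium genes and 2.89% in all genes, and the TATA letters are at 2.56% and 14.8%.

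The same letters were counted in lists outside the 43 genes. In 41 further cilium genes, 7 of 35 with a promoter held an X-box and 10 of 35 the half-site. In genes of motile cilia the X-box count was 5 of 14. It was 2 of 69 in mitochondrial ribosomal protein genes, a set of broadly used genes, and 0 of 9 in Hedgehog receivers and targets.

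At gene ends, 41 of 43 cilium genes were marked (95.3%), against 65.0% of all protein-coding genes. All 41 had an interval with a score of at least 100, against 61.2% of all genes. The score is the authors' deposited value for each interval. It grows with the evidence for enrichment and with the number of merged reads, and it is used here only to rank intervals within the list. The median of the highest score per marked gene was 2426 in the cilium genes (quartiles 1776 to 3810, range 647 to 8920) and 2494 in all marked genes (quartiles 704.5 to 4793.5), and 19 of the 41 lay above the latter median. Scores below 1000 were held by 4 of the 41 (9.76%), against 30.1% of all marked genes, and scores of 5000 or more by 9 (22.0%), against 23.1%. Scores from 1000 to below 2000 were held by 13 (31.7%), against 13.7% of all marked genes. The cilium genes therefore held few of the lowest scores, more of those just above and a like share of the highest. Mitochondrial ribosomal protein genes were marked in 74 of 78 cases, with a median of 4267.

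**Figure D2:**
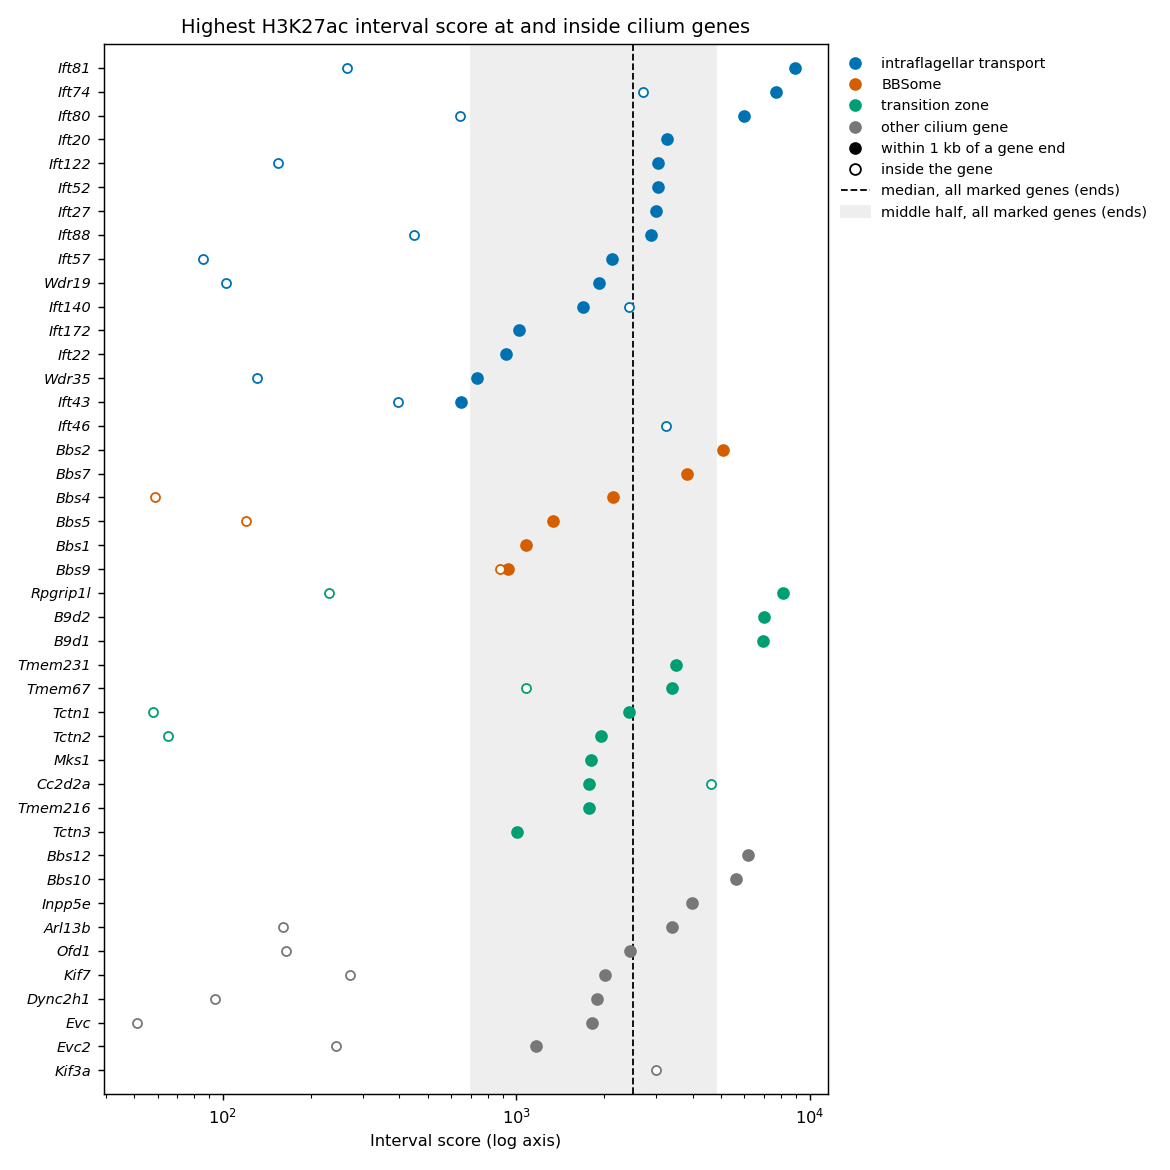
Highest H3K27ac interval score (log axis) within 1 kb of an end (filled) and inside the gene (open) for each of the 43 cilium genes, coloured by class and sorted within it. The dashed line is the median over all marked genes, 2494, and the grey band their quartiles. Ift46 and Kif3a have an open point only.

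Of the IFT-B genes, 10 of 11 were marked, with a median score of 3021. The highest score of all 43 genes was at Ift81, 8920 (chr5:122613785-122614549), whose protein binds tubulin as IFT cargo together with that of Ift74. Ift74 had 7714 (chr4:94602434-94603979) and Ift80 5961 (chr3:69004643-69006225), but each of these intervals is shared with a neighbour that has an end in the same window, Plaa and Smc4. Ift20, which also works at the Golgi, had 3270, Ift52 3036, Ift27 3006, and Ift88, needed for cilium assembly, 2873. These 4 differed little from each other. Ift57 had 2122, Ift172 1020 and Ift22 922. Ift46 was the 1 IFT-B gene with no interval at an end.

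All 5 IFT-A genes were marked, at lower scores: their median was 1689, and 1 of the 5 lay above the median of all marked genes. That gene was Ift122 with 3040 (chr6:115853592-115854336). Wdr19 had 1922 and Ift140 1689. Wdr35 had 736 and Ift43 647 (chr12:86082603-86083006), the lowest of the 41 marked genes. Loss of IFT-A genes, Wdr35 and Ift43 among them, is known from cranioectodermal dysplasia.

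All 6 BBSome genes were marked, with a median of 1734 and a range of 941 to 5073. Bbs2 (5073, chr8:94097836-94099247) and Bbs7 (3810, chr3:36612786-36613372) were the 2 above the median of all marked genes. Bbs4 had 2131, Bbs5 1337, Bbs1 1085 and Bbs9 941 (chr9:22475063-22476426). The chaperonin-like genes Bbs10 (5615) and Bbs12 (6160), whose products assemble the BBSome, were higher than any of these 6 genes. The Bbs12 interval also lay within 1 kb of an end of Cetn4.

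All 11 transition zone genes were marked, with a median of 2426 and a range of 1011 to 8102. Rpgrip1l, a scaffold of the gate, had the highest score, 8102 (chr8:91313484-91314170). That interval ended 262 bases before the Rpgrip1l start, on the side of the neighbouring gene Fto, and a second interval over the start itself had 1085. B9d2 (6980) and B9d1 (6927), which code for B9-domain partners of Mks1, stood next, although Mks1 had 1797. Among the membrane proteins of the gate, Tmem231 had 3499, Tmem67 3398 and Tmem216 1776. Cc2d2a had 1778. The tectonic genes ran from 2426 at Tctn1 through 1951 at Tctn2 to 1011 at Tctn3 (chr19:40611496-40612239), the lowest of the class.

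The other cilium genes were marked in 9 of 10 cases, with a median of 2450. Inpp5e, a phosphoinositide phosphatase of the ciliary membrane, had 3987, and Arl13b, a ciliary small GTPase, 3386. Ofd1, the X-linked gene of oral-facial-digital syndrome, had 2450 in an interval shared with Trappc2. Kif7, the kinesin that organises the cilium tip and regulates Gli factors, had 2007, and Dync2h1, the dynein heavy chain of return transport, 1888. Evc had 1814 and Evc2 1166, the lowest of this group. Their products form a complex near the base of the cilium that relays the signal of Smoothened, and the Evc2 interval (chr5:37337924-37339012) lay within 1 kb of the 5′ ends of both genes. Kif3a, the kinesin motor subunit of outward transport, was the 1 gene of this group with no interval at an end.

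Side by side, the median score was 2873 in 15 marked IFT genes of 16, 1734 in the 6 BBSome genes and 2426 in the 11 transition zone genes. On the scale of all marked genes these medians stood at percentiles of 54.4, 40.0 and 49.1. The ranges of the 3 classes overlapped over most of their length, genes are not replicates of a class, and no difference between classes was tested. At RefSeq start sites the medians were 2122 in 13 IFT genes, 1734 in 6 BBSome genes and 2188.5 in 10 transition zone genes. The IFT median was thus above that of the transition zone at gene ends and below it at start sites. The start-site medians leave out Ift80, Ift81, Ift122 and Tmem67. Within IFT, the medians at gene ends of IFT-B (3021) and IFT-A (1689) lay further apart than those of IFT and the transition zone. The median width of the highest-scoring interval was 858 bp over the cilium genes and 810 bp over all marked genes, with 343 bp at Ift22 the narrowest and 1583 bp at Ift80 the widest.

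A shared end was common. Another protein-coding gene ended or began within 1 kb of an end of 18 of the 43 cilium genes (41.9%), against 24.8% of all genes, and such an interval cannot be assigned to 1 of the neighbours. All 18 were marked, with a median score of 3334, and the 25 others had 23 marked with a median of 1951. Over all protein-coding genes, 86.0% with such a neighbour and 58.1% of the others were marked, and the corresponding medians were 3343 and 2015. The 5′ window itself was shared by 10 of the 39 genes with a known strand: Ift20 with Tnfaip1, Ift74 with Plaa, Ift140 with Cramp1l, Ift172 with Fndc4, Bbs1 with Dpp3, Bbs12 with Cetn4, Rpgrip1l with Fto, Tctn3 with Entpd1, Ofd1 with Trappc2 and Inpp5e with Sec16a. Their median 5′ score was 2860, and that of the other 27 marked genes 2007, with overlapping ranges. B9d2 counts among the 18 through Tgfb1 at its 3′ end. Its score of 6980 belongs to a start with no other protein-coding gene end within 1 kb, as do those of B9d1 and Bbs10. Non-coding genes were not counted here, nor were neighbours farther off that may reach the same interval, as with Evc and Evc2.

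The strand was known for 39 genes. Among these, 37 had an interval within 1 kb of the annotated 5′ end (62.0% of all genes) and 8 within 1 kb of the 3′ end (12.8%). Intervals at both ends were present in 9 of the 43 genes, against 9.91%. The 3′ intervals were weaker than the 5′ interval of the same gene in all 8: Tctn2 had 1825 (chr5:124628206-124628935), B9d2 575, Ift172 494, Bbs7 289, Tctn1 194, Ift43 106, Dync2h1 96 and Evc 55. Tctn2 was the 1 gene of these where the 2 ends were of similar score, 1951 and 1825. The very base of the annotated 5′ end lay under an interval in 20 of 39 genes, against 31.6%. Among genes with an interval at the 5′ end, that was 20 of 37 cilium genes (54.1%) and 51.0% of all such genes.

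Measured from RefSeq start sites instead of the outer gene ends, all 39 genes had an interval within 1 kb, against 65.5% of all genes. The start base itself was covered in 27 of 39 (69.2%), against 42.9% of all genes and 65.5% of the genes with an interval at a start, counting a gene with more than 1 start as covered when any of its starts was. With 1 start per gene, 26 were covered, 9 had an interval on both sides with the start in the space between, 4 had intervals on the downstream side only, and none on the upstream side only. The 9 were Arl13b, Ift20, Ift22, Ift74, Ift140, Ift172, Tctn1, Tctn2 and Wdr19, with spaces of 142 to 472 bp (median 218 bp). The downstream interval had the higher score in 5 of them and the upstream one in 4, among them Wdr19 (1922 upstream, 1398 downstream) and Ift20 (3270 and 2486). At the annotated 5′ ends, the highest-scoring interval was centred on the downstream side in 27 of 37 genes (73.0%) and in 80.7% of all genes.

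**Figure D3:**
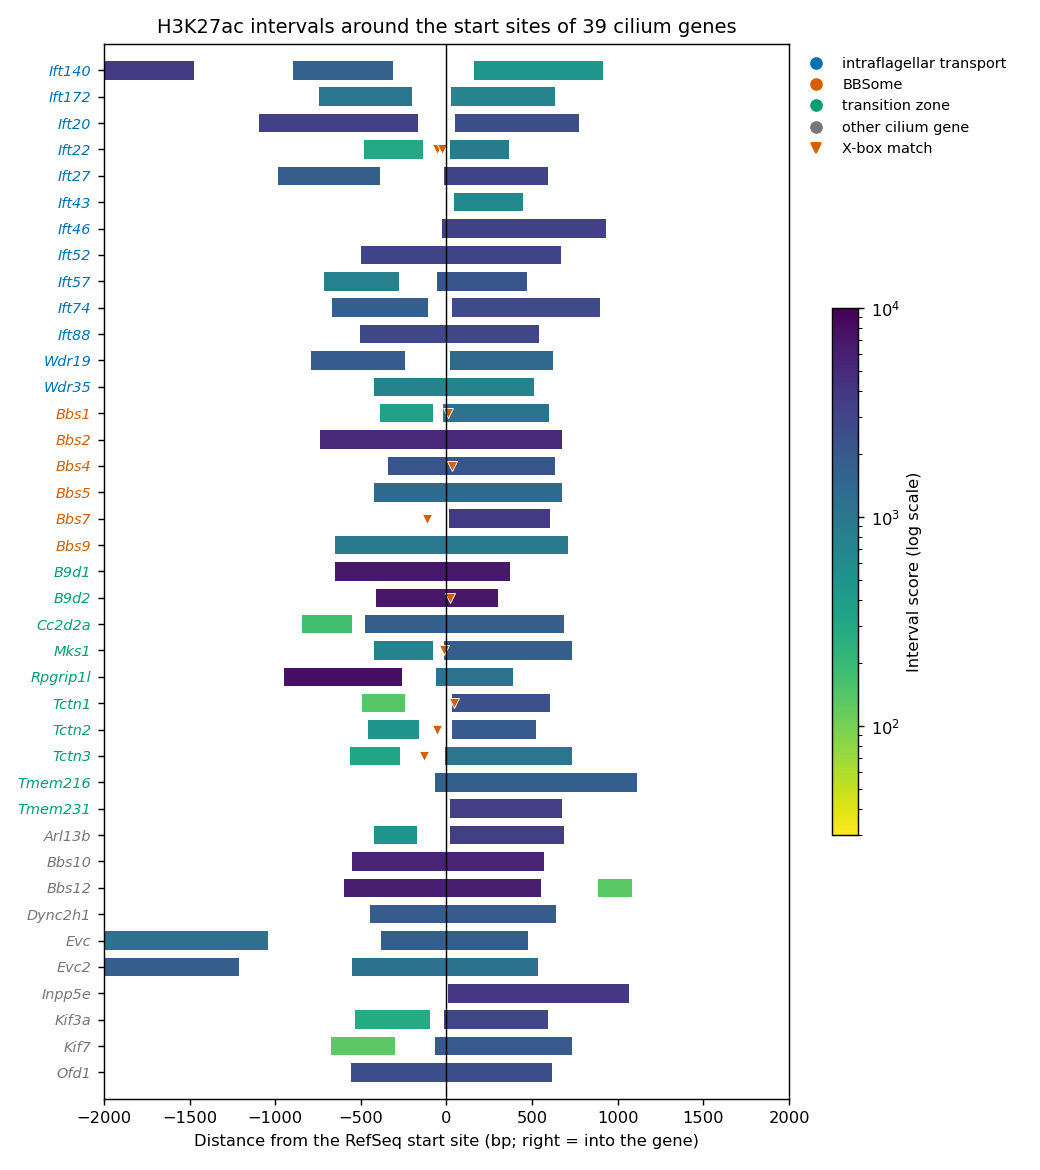
H3K27ac intervals (bars, coloured by score on a log scale) around the RefSeq start sites of 39 cilium genes, by distance in bp with the gene to the right, 1 start per gene; triangles are the X-box matches of 9 genes. In 26 genes a bar crosses the start, in 9 the start lies in a space between bars, and bars running past 2 kb are clipped.

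The pair of genes without an interval at an outer end were both marked at an inner start. Ift46 codes for an IFT-B subunit, and its RefSeq start lies 2553 bp inside the annotated gene. An interval of score 3236 (chr9:44772981-44773938) ran from 28 bases before this start to 929 after it, and it was the only interval in Ift46. The Kif3a start lies 1668 bp inside, and an interval of score 2991 (chr11:53567356-53567959) ran from 13 bases before it to 590 after, beside a second of 282. A long non-coding gene, A430108G06Rik, also has an end within 1 kb there. In Ift74 the start lies 11225 bp inside, between intervals of 1714 and 2708, while the interval of 7714 named above sat at the outer end shared with Plaa. The Dync2h1 start, 1248 bp inside, was covered by its interval of 1888.

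At the start sites, the median highest score was 2131 over the 39 cilium genes and 2748 over all genes with an interval there. The 10 genes with an X-box had a median of 2036.5 (range 922 to 6980) and the 29 without one 2708 (range 647 to 8102). B9d2 (6980) was the highest and Ift22 (922) the lowest of the genes with an X-box, and the 2 ranges overlapped over nearly all of their length.

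Inside the genes, 26 of 43 held at least 1 interval (60.5%), against 41.2% of all genes. The cilium genes were longer, with a median of 38.1 kb against 17.2 kb for all genes. The genes held 140 such intervals, with a median of 1 per gene. Their scores were low: the median was 97.5, against 1689 for the 73 distinct intervals at the ends of the same genes. Over all protein-coding genes the medians were 99 inside and 1116 at ends. Per 100 kb of gene, the cilium genes held 5.85 intervals and all genes 5.03. Without Bbs9, a comparison chosen after seeing the data, the other 42 cilium genes held 4.95 per 100 kb, below the rate of all genes. The rate was 6.97 in IFT genes, 7.91 in BBSome genes and 4.46 in transition zone genes. Bbs9 alone held 42 of the 44 BBSome intervals, so the BBSome rate describes that gene.

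Longer genes held more intervals. In the 13 cilium genes under 20 kb, 1 held an interval inside (Kif7), a share of 7.69% against 15.8% of all genes of that length. Between 20 and 50 kb the shares were 58.3% and 55.5%. All 15 cilium genes of 50 to 100 kb held at least 1, against 80.9%, with a median of 4 against 3 for all genes of that length. Bbs9 spans 412.7 kb and held 42, against a median of 19 in 405 protein-coding genes of like length, between 300.2 and 599.5 kb. The strongest of the 42 had 878 (chr9:22837266-22837990), close to the 941 at the gene's own end. Dync2h1, at 249.8 kb the second longest of the 43, held 3, none above 94. Ift88 held 11, Ift122 10, and Ift43 and Rpgrip1l 9 each, in genes of 73.3 to 96.3 kb. All 5 IFT-A genes held intervals inside, at 9.37 per 100 kb together, whereas their median end score of 1689 was below those of the IFT-B, BBSome and transition zone genes.

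**Figure D4:**
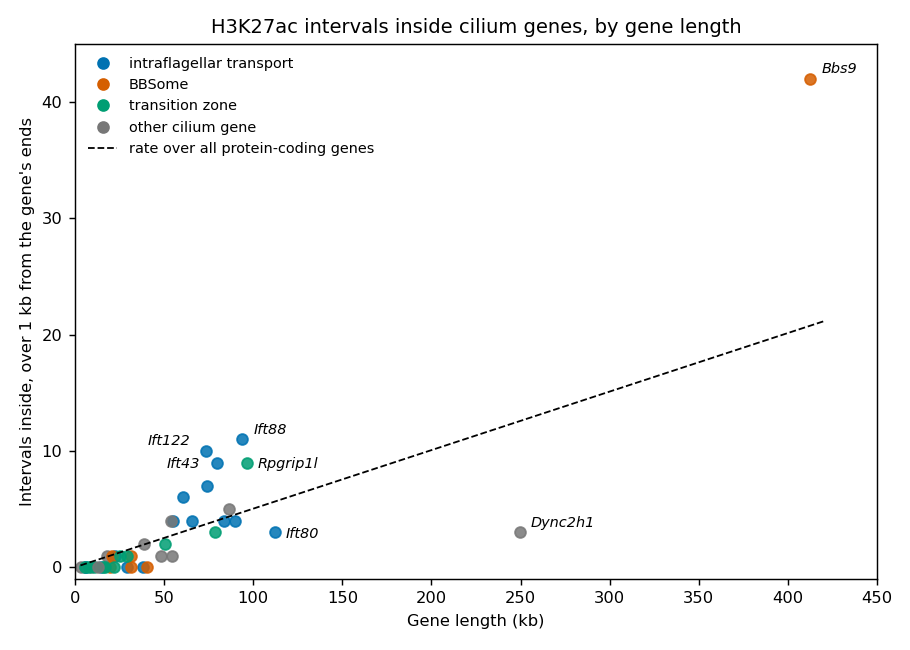
Number of H3K27ac intervals inside each cilium gene, over 1 kb from its ends, against gene length in kb, with 1 point per gene coloured by class. The dashed line is the rate over all protein-coding genes, 5.03 per 100 kb. Bbs9 stands above the line with 42 intervals and Dync2h1 below it with 3.

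A score of at least 1000 was reached by 7 of the 140 inside intervals (5.00%), in 6 genes, against 4.65% of the inside intervals of all genes. Those in Ift46, Kif3a and Ift74 were the inner start sites described above. Cc2d2a, which codes for a coiled-coil protein of the transition zone, held the strongest, 4623 (chr5:43672251-43673357), 9877 to 10983 bp from its 5′ end and within 1 kb of an end of the gene model Gm35762. It exceeded the 1778 at the Cc2d2a end. Ift140 held 2424 (chr17:25083664-25084729), 67581 to 68646 bp into the gene, with no other annotated gene end within 1 kb, against 1689 at its 5′ end. In Tmem67, which codes for the receptor-like protein meckelin, an interval of 1077 (chr4:12087495-12087981) stood within the gene, below the 3398 at its end. In 4 genes (Ift46, Kif3a, Ift140 and Cc2d2a) the highest inside score was above that of any end. Whether these intervals fall in exons or introns was not analysed here.

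**Figure D5:**
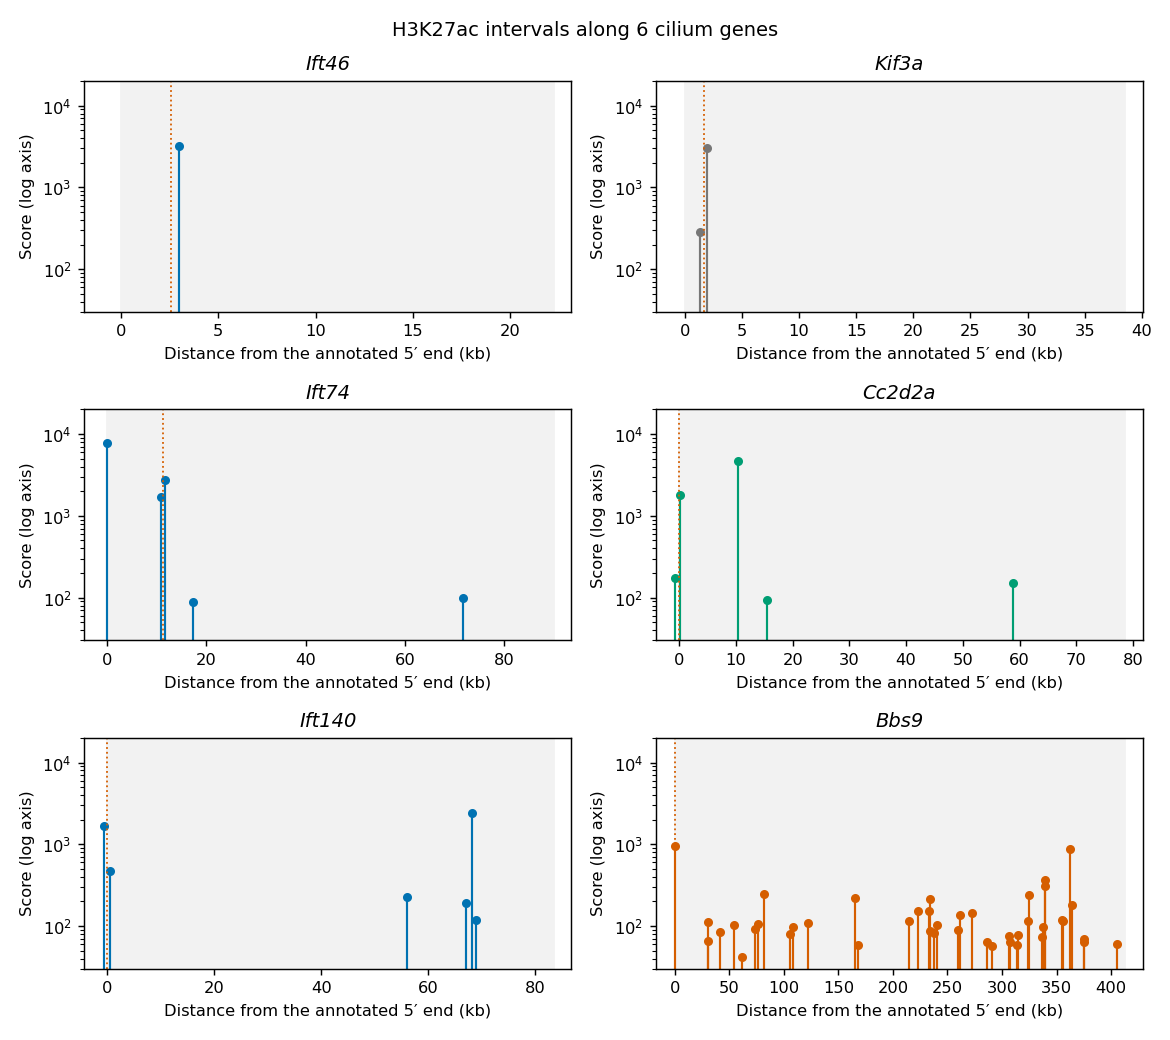
H3K27ac intervals along 6 cilium genes: interval score (log axis) against distance from the annotated 5′ end in kb, with the gene in grey and RefSeq start sites as dotted lines. The strong intervals of Ift46 and Kif3a lie at their inner starts, those of Cc2d2a (4623) and Ift140 (2424) lie far from the start, and Bbs9 shows 42 intervals of scores up to 878 along its length.

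Other genes of the pathway, listed separately from the 43, were marked in 39 of 41 cases, with a median score of 4138. The 2 without an interval at an end were Cluap1, an IFT-B gene, and Kifap3, which codes for the partner of Kif3a, and all 35 genes of this list with a RefSeq promoter had an interval at a start. Further BBS genes were marked in 7 of 7 cases (median 5365), transition zone and nephronophthisis genes in 11 of 11 (median 4981), centriole and basal body genes in 10 of 10 (median 3158.5) and IFT and motor genes in 11 of 13 (median 3190). Hedgehog receivers and targets were marked in 12 of 12 cases (median 3012), with Smo, the membrane transducer that enters the cilium, at 8907 and the co-receptor gene Cdon at 8735. Genes of motile cilia were marked in 13 of 17 cases, with a median of 509. Tekt1 (3503) and Ccdc40 (2440) were the highest of them, and Mcidas, Dnah11, Dnaic2 and Tekt4 had no interval at an end.

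RFX genes were marked at an outer end in 2 of 6 cases, Rfx7 with 9933 and Rfx2 with 415. Rfx1, Rfx3, Rfx4 and Rfx5 had none there, but all 6 had an interval within 1 kb of a RefSeq start.

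The labelled cell type was checked with marker genes. Facial mesenchyme markers were marked in 10 of 10 cases, with scores of 87 to 4697 (median 1393.5). Epithelial markers were marked in 4 of 8 (207 to 1367), blood markers in 4 of 8 (224 to 1492), endothelial markers in 7 of 8 (49 to 435) and neuronal markers in 6 of 8 (81 to 4646). Over all protein-coding genes, 65.0% were marked, and the median over marked genes was 2494, above that of the mesenchyme markers. These counts alone do not identify the cell type. At gene ends, scores outside the mesenchyme list were highest at the neuronal gene Elavl4 (4646) and the blood genes Spi1 (1492) and Klf1 (1480). The epithelial gene Grhl2 (1367) followed. These marker values leave out intervals inside the genes, over 1 kb from both ends. There the endothelial genes Egfl7 and Erg had up to 2251 and 1377. The mesenchyme gene with 87 at an end had up to 2523 inside. Genes without an interval at an end included the globin genes Hba-a1 and Hbb-bt, the blood gene Ptprc and the epithelial gene Cdh1. The part of other cell types in the cilium gene values was not tested.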

How the data were processed

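Chromatin immunoprecipitation sequencing for H3K27ac was analysed as 1 interval list. Per the text deposited with the list, the authors merged the 4 WT E10.5 libraries and called intervals on them with MACS2 2.1.3.3 at a q-value of 0.001. Reads were extended to 141 bp, with the shift set to 0 and model building off, duplicate reads were retained, and no control is named. The submitters' processing notes name bcl2fastq 2.17, Bowtie 1.1.1 and the builds GRCm38 and mm10, which are the same assembly. The score of each interval is the authors' deposited value, with no normalization, so it depends on the unknown depth. Keeping duplicates and naming no control can leave piled-up reads in the list.

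Gene ends were taken from the RefSeq gene table of GRCm38.p6, and strands, start sites and letters from its promoter table (39 of 43 genes). An overlap of at least 1 bp with the window of 1 kb counted as an interval at an end. Inside intervals were assigned by their centre. Counting was tested on simulated intervals. All 43 genes are named. For other lists, the 2 highest-scoring genes and those without an interval could be named. The members, lists and comparisons were chosen with earlier results of these data known. The form of the X-box, the half-site, the RefSeq start sites and the genes of the printed stretches and plots were chosen after the files were seen. Alternatives varied the window, the score minimum, the overlap rule, the gene end and the X-box. The X-box sequences of 1 gene are not reported here. No test was made, since 1 pooled list holds no replicates. Python 3.11.15, numpy 2.4.6, pandas 2.3.3, scipy 1.17.1 and matplotlib 3.10.9 were used.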

Additional observations from a re-analysis of the deposited data

How the results depend on the processing

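Over 47 alternatives, 44 stayed within the limit set for them. That limit was 1.5 times the reported value or, for the share of genes with an interval inside, its 95% interval. Counts of marked genes were near their total, so they could pass the limit only by falling. The marked cilium genes numbered 41 or 42 of 43 with other windows, score limits and overlap rules, and 37 of 39 at the annotated 5′ end. They numbered 39 of 39 at RefSeq start sites, an alternative chosen after seeing the data. All 43 had an interval when any place in the gene or within 1 kb of it counted. The median end score lay between 2122 and 2932. Inside the genes, the median number of intervals fell from 1 to 0 with scores of at least 100, and to 0 with scores of at least the list's median of 111. The share of genes with an interval inside was 60.5% with all scores (95% exact Clopper-Pearson interval 44.41% to 75.02%, counting error only). It fell to 44.2% with scores of at least 111, and was 46.5% with scores of at least 100. The 41.2% of all genes is for intervals of any score, and the share over all genes was not counted at these limits. X-boxes were found in 9 genes with a spacer of 2 bases only, and in 10 when the window began 150 bases before the start, both chosen after seeing the data. Leaving out Bbs9 took the rate inside the genes from 5.85 to 4.95 per 100 kb, below the 5.03 of all genes. No paired analysis was possible because the values come from 1 pooled list and from no test. Unknown depth limits what the absence of an interval shows: a weakly acetylated site may not have been called.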
